A study of Mus musculus with 6 samples.

Results

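The genes described here are 10 CC chemokines linked to type 2 inflammation: Ccl11, Ccl24, Ccl17, Ccl22, Ccl8, Ccl2, Ccl7, Ccl12, Ccl6 and Ccl9. They were taken by symbol from the array's platform annotation, as 10 of 18193 genes with a probe set, and were read by 12 probe sets. Ccl6 and Ccl9 had 2 probe sets each, the other 8 genes had 1, and 0 of the 12 were annotated to more than 1 gene. Every gene was followed over 6 arrays of mouse lung RNA, whether or not it was bright.

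CC chemokines are small secreted proteins that draw leukocytes into tissue through G protein-coupled receptors of the CCR family. IL-4 and IL-13 both signal through the IL-4 receptor alpha chain and the transcription factor STAT6, and several CC chemokine genes are known STAT6 targets in epithelium, fibroblasts, smooth muscle and macrophages. In allergic airways the eotaxins Ccl11 and Ccl24 attract eosinophils, Ccl17 and Ccl22 attract CCR4-bearing T cells, and ligands of CCR2 attract monocytes.

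Whole lungs came from adult BALB/c mice of 3 genotypes, and all of them had received 2 to 3 µg of IL-13 into the trachea daily for 7 days, with tissue taken 24 h after the last dose. Wild-type mice (WT) carried the receptor on both alleles (IL4R +/+) and no transgene. The knockouts (IL4R KO) were IL4R -/-. The third group (IL4R KO + SMP8-IL4R, called transgenic below) was IL4R -/- and transgene +/-, with receptor expression driven by the SMP8 promoter, which the design text describes as specific to smooth muscle. Each group had 2 arrays, each array held RNA pooled from 4 mice, and every group had received IL-13, so the levels have no untreated baseline. The question set by the design is which transcripts depend on the receptor on smooth muscle cells.

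Values are log2 intensities, on which a difference of 1 is a doubling. A level cannot be compared between probe sets, so genes are compared only with themselves across arrays. Differences were tested with limma, a linear model fitted to all genes at once, and a difference passed at a Benjamini-Hochberg adjusted p under 0.05. The gene test covered 11861 genes whose brightest probe set lay above 7.10, the median over every probe set and array, in 2 or more arrays. A parallel test covered all 45037 probe sets with no filter, and its values are used for Ccl2 and Ccl7, which the gene test left out, for Ccl22 and Ccl12, which entered it through their high group alone, and for second probe sets. The number of arrays limits precision, and p-values measure the spread between pools. In whole lung, fewer cells of a type and less RNA per cell cannot be told apart.

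The targeted gene, Il4ra, read 9.64 and 9.81 in WT, 9.35 and 9.55 in IL4R KO, with 9.98 and 9.84 in the transgenic lungs at its brightest probe set. IL4R KO had the lowest pools, but Il4ra did not pass in any comparison (limma adjusted p = 0.19 for WT minus IL4R KO and 0.24 for transgenic minus IL4R KO), and whether the probes lie in the deleted part was not examined, so these values do not check the labels.

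Some arrays stood apart before any chemokine was considered. WT pool 2 and IL4R KO pool 1 held liver transcripts: Alb, the albumin gene, read 11.8 and 12.3 there and 5.68 to 5.93 in the other 4 arrays. IL4R KO pool 2 had lower values for the Y-linked genes Eif2s3y (4.27, against 8.49 or more elsewhere) and Kdm5d (3.33, against 7.11 or more). The 9 alveolar epithelial markers averaged 13.3 to 13.4 in every array, but single markers differed in both directions. For WT minus IL4R KO 5 of 9 had an unadjusted p under 0.05 (limma), 2 as higher and 3 as lower. Of these Aqp5 passed as lower in WT (-0.41, limma adjusted p = 0.035). Chemokine calls that ended without the 2 arrays with liver transcripts are named below.

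Across the 12 probe sets, values were mostly high in WT, low in IL4R KO and low in the transgenic lungs, with a minority that stood in between or highest in the transgenic lungs. The plot of all probe sets by array shows these patterns. In the unfiltered test 7 of 12 probe sets passed as higher in WT than IL4R KO, where 0.999% of all probe sets did. Both WT pools lay above both IL4R KO pools in 11 of 12, where 23.7% of all probe sets showed this. For transgenic lungs against IL4R KO, 0 of 12 passed (limma), where 0.0155% of all probe sets passed as higher, and 4 of 12 had an unadjusted p under 0.05 as higher, where 5.97% of all did. Against WT, 6 of 12 passed as lower in the transgenic lungs (0.77% of all) and 1 passed as higher (0.273% of all). The median difference over the 12 was 1.20 for WT minus IL4R KO, 0.17 for transgenic minus IL4R KO and -1.35 for transgenic minus WT. Over all probe sets those medians were 0.00059, -0.0077 and -0.0037. In the gene test 8 of the 10 genes were bright enough, Ccl22 and Ccl12 through their high group alone. As higher in WT than IL4R KO 5 passed (2.77% of all genes tested), as lower in the transgenic lungs than in WT 5 (2.15%) and as higher than in WT 1 (0.691%), counts that the filter helped to shape. These 3 comparisons share arrays, so they are not independent of each other. The 10 genes were chosen with earlier results of these data known, so the counts describe them and are not a test of the family.

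**Figure D1:**
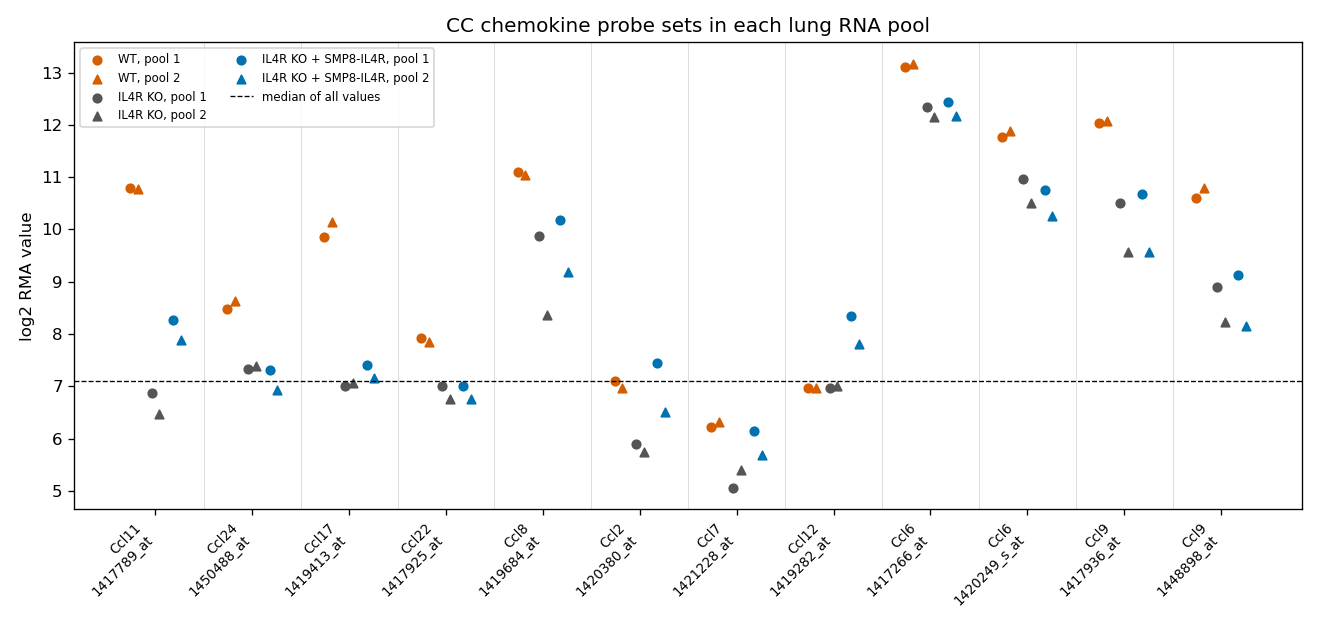
Log2 intensity of each of the 12 probe sets in the 6 arrays, with 1 point per pool of 4 mice on a shared log2 axis and a dashed line at the median of all values, 7.10. Ccl11 and Ccl17 show the widest separation of WT from IL4R KO, Ccl12 is high in both transgenic pools alone, and Ccl2 and Ccl7 are low in both IL4R KO pools.

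Ccl11, eotaxin-1, is a ligand of CCR3 and the main eosinophil attractant made by airway structural cells. Its probe set read 10.79 and 10.77 in WT, 6.87 and 6.47 in IL4R KO, with 8.27 and 7.89 in the transgenic pools. The 3 groups did not overlap: WT was highest, IL4R KO lowest, and the transgenic pools stood between them. Ccl11 was higher in WT than in IL4R KO by 4.11 ± 0.17 (SE, n = 2 pools per group; limma adjusted p = 0.00034), a 17.3-fold difference. It was lower in the transgenic lungs than in WT by 6.49-fold (difference -2.70 ± 0.17, limma adjusted p = 0.0016).

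The transgenic lungs exceeded IL4R KO in Ccl11 by 1.41 ± 0.17, or 2.66-fold, with a 95% interval of 0.99 to 1.83 for this single gene. The unadjusted p was 0.00019 in limma, and the adjusted p of 0.093 did not pass among 11861 genes, of which 0.0759% passed as higher. Ccl11 was singled out with earlier results of these data known, so this unadjusted p and interval are not independent of that choice. The call changed with the settings. The limma adjusted p was 0.038 with a robust intensity trend, 0.044 without IL4R KO pool 2 and 0.10 without both arrays that held liver transcripts, and it ranged from 0.038 to 0.64 over 15 alternatives. The difference was 1.21 to 1.61 over these alternatives. It could move only where the arrays were centred or an IL4R KO or transgenic array was left out. In the others it was 1.41 by construction, which is no check on its size.

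Ccl24, eotaxin-2, is also a CCR3 ligand and is made chiefly by macrophages. Its probe set read 8.48 and 8.64 in WT, 7.34 and 7.39 in IL4R KO, with 7.32 and 6.92 in the transgenic lungs. Here WT stood alone, and the transgenic pools lay below both IL4R KO pools by a small margin. Ccl24 was 2.29-fold higher in WT than IL4R KO (1.20 ± 0.14, limma adjusted p = 0.010) and lower in the transgenic lungs than in WT (-1.44 ± 0.14, limma adjusted p = 0.0062). The transgenic lungs minus IL4R KO gave -0.24, with an interval of -0.58 to 0.09 (limma adjusted p = 0.51). The call against IL4R KO was lost with fewer arrays: its limma adjusted p was 0.078 without WT pool 1, 0.099 without WT pool 2, and 0.062 without both arrays that held liver transcripts. The call against WT also ended without either WT pool, at limma adjusted p = 0.060 and 0.078.

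The eotaxins shared the excess in WT but not the intermediate level in the transgenic lungs. Whether Ccl11 and Ccl24 differ in their response to the transgene was not tested. Of 7 eosinophil markers with a probe set, Epx, Prg2, Ccr3 and Il5ra were under the lower quartile of all values, 5.30, in every array. Siglecf, a lectin of eosinophils and alveolar macrophages, read 7.41 to 7.999 over the 6 arrays and did not pass (WT minus IL4R KO -0.11, limma adjusted p = 0.82). The mean of those 7 markers was 6.61 in both WT pools, 5.47 and 5.58 in IL4R KO, with 5.37 and 5.38 in the transgenic lungs. Of the 3 tested, Alox15 and Rnase2a passed as higher in WT than IL4R KO, as 2.77% of all genes tested did. Rnase2a, which entered the gene test through WT alone, read 12.87 and 12.84 in WT and 5.76 to 5.92 in the other 4 arrays. Most of the WT excess in the mean of the 7 markers comes from this gene. Alox15 and Rnase2a are also expressed by activated macrophages, and their part in the chemokine values was not tested.

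**Figure D2:**
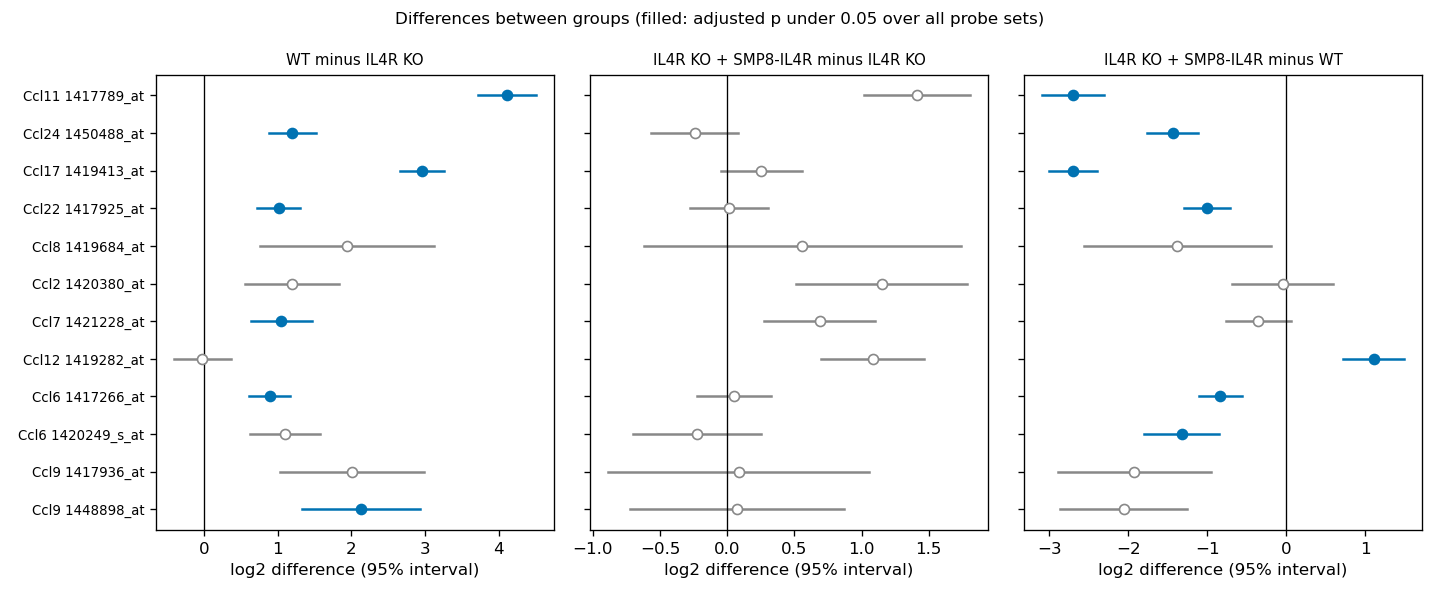
Difference in log2 intensity for each of the 12 probe sets in each of the 3 comparisons, with 95% intervals from the limma fit over all probe sets, a line at 0 and filled points where the adjusted p was under 0.05. Ccl11 and Ccl17 have the largest WT minus IL4R KO differences, and Ccl11, Ccl12, Ccl2 and Ccl7 are the 4 whose transgenic minus IL4R KO interval lies above 0.

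Ccl17 (TARC) and Ccl22 (MDC) are the ligands of CCR4, a receptor of Th2 cells and regulatory T cells, and are made by dendritic cells, macrophages and, for Ccl17, airway epithelium. The genes flank Cx3cl1 on chromosome 8. Their upstream sequences are shown because the genes are near neighbours whose products act on the same receptor, and both passed as higher in WT. The 250 bases before each start site, from the RefSeq promoter table (GRCm38.p6, C57BL/6J reference, plus strand, 5′ to 3′), were searched on both strands for TTCNNNNGAA, the spacing favoured by STAT6, and TTCNNNGAA, the spacing of other STAT factors. Capitals mark matches. Ccl17 lies at chr8:94810203-94810452 and Ccl22 at chr8:94745434-94745683.
Ccl17: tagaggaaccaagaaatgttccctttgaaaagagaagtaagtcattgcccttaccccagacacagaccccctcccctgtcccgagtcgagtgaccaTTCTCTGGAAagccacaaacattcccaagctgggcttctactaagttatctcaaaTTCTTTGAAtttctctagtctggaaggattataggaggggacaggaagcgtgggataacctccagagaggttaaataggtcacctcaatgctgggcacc
Ccl22: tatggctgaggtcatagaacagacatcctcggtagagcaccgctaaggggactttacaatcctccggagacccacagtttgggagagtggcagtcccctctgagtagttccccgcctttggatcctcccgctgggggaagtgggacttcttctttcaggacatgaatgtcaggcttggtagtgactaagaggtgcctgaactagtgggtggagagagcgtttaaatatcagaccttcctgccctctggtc

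The table held upstream windows for 6 of the 10 genes (Ccl17, Ccl22, Ccl12, Ccl8, Ccl6 and Ccl9), and Ccl17 was the 1 of those 6 with a match. It held both spacings: TTCTCTGGAA began 154 bases before the start site and TTCTTTGAA began 99 bases before it, with no overlap. Among 32851 windows of the same length, 5.85% held TTCNNNNGAA, 7.02% held TTCNNNGAA and 12.4% held either. These matches describe the letters of the reference and not a site in use.

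The Ccl17 probe set read 9.85 and 10.14 in WT, 7.01 and 7.07 in IL4R KO, with 7.42 and 7.17 in the transgenic lungs. The WT pools were far above the rest, and the transgenic pools lay just above IL4R KO without overlap. Ccl17 was 7.76-fold higher in WT than IL4R KO (2.96 ± 0.13, limma adjusted p = 0.00037) and 6.51-fold lower in the transgenic lungs than in WT (-2.70 ± 0.13, limma adjusted p = 0.00059). Against IL4R KO the transgenic difference was 0.25, with an interval of -0.06 to 0.56 (limma adjusted p = 0.47). Ccl11 and Ccl17 passed in both comparisons with WT under all 15 alternatives.

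The Ccl22 probe set read 7.93 and 7.85 in WT, 7.00 and 6.75 in IL4R KO, with 7.01 and 6.76 in the transgenic lungs. The 4 IL4R KO and transgenic arrays were alike, at or just under the array median, and WT alone was above it. Ccl22 was 2.02-fold higher in WT than IL4R KO (1.01 ± 0.12, limma adjusted p = 0.015 over all probe sets) and lower in the transgenic lungs than in WT (-1.002 ± 0.12, 0.018). Transgenic minus IL4R KO was 0.011, with an interval of -0.28 to 0.30 for this single probe set. In the gene test (0.011 and 0.015 with all arrays) the call against IL4R KO ended without WT pool 1 or WT pool 2 (limma adjusted p = 0.13 and 0.092). Without transgenic pool 2, WT pool 1 or WT pool 2 the call against WT ended (0.088, 0.16 and 0.12).

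T cells, some of which bear CCR4, and dendritic cells, which make these ligands, were followed by marker lists. None of 6 tested T cell markers passed in any comparison (limma). The mean of all 10 T cell markers with a probe set was 7.35 and 7.42 in WT, 7.53 and 7.84 in IL4R KO, with 7.54 and 7.48 in the transgenic lungs. Of the 6 tested, Cd3d, Cd3e and Cd4 had an unadjusted p under 0.05 for WT minus IL4R KO, at -0.75, -0.25 and -0.33. Of 8 tested dendritic cell markers, 4 passed as higher in WT than IL4R KO (Batf3, Cd209a, Irf4 and Itgax) and 1 as lower (Itgae). Of all genes tested 2.77% passed as higher and 1.92% as lower, and Batf3 entered the gene test through WT alone. The mean of the dendritic list was 8.15 and 8.26 in WT and 7.77 to 7.94 in the other 4 arrays. Batf3, a transcription factor of dendritic cells, was higher in WT by 1.78 (limma adjusted p = 0.0023), and Irf4, a transcription factor of both dendritic cells and alternatively activated macrophages, by 0.94 (limma adjusted p = 0.0051). Their part in the Ccl17 and Ccl22 values was not tested.

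Ccl2 (MCP-1), Ccl7 (MCP-3) and Ccl12 (MCP-5) are monocyte attractants that act on CCR2, and mouse Ccl8 acts on CCR8. In the RefSeq gene order of chromosome 11 these genes and Ccl11 are consecutive protein-coding genes, in the order Ccl2, Ccl7, Ccl11, Ccl12, Ccl8. In Ccl2, Ccl7, Ccl11 and Ccl12 both transgenic pools exceeded both IL4R KO pools. Outside this cluster Ccl17 was the 1 other gene of the 10 with that order, and 20% of all 45037 probe sets had it. In Ccl8, at the end of the cluster, the transgenic and IL4R KO pools overlapped.

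Ccl12 had a pattern of its own among the 10. Its probe set read 6.97 and 6.97 in WT, 6.97 and 7.01 in IL4R KO, with 8.34 and 7.81 in the transgenic lungs. WT and IL4R KO were level, just under the array median, and both transgenic pools were higher. WT minus IL4R KO was -0.022, with an interval of -0.41 to 0.36 (limma adjusted p = 0.97 over all probe sets). Transgenic minus WT was 1.10 ± 0.16, a 2.15-fold excess that passed (limma adjusted p = 0.036 over all probe sets). In the gene test (0.032 with all arrays) it did not pass without WT pool 1 (0.23), without WT pool 2 (0.21) or without both arrays that held liver transcripts (0.098), while the difference stayed at 1.10 to 1.11. The transgenic lungs minus IL4R KO gave 1.08, with an interval of 0.70 to 1.47 and an unadjusted p of 0.00032, and did not pass (limma adjusted p = 0.19 over all probe sets, and 0.079 to 0.49 over 14 alternatives of the gene test). The upstream window of Ccl12, at chr11:82101595-82101844, is shown because this gene alone was highest in the transgenic lungs. It held neither STAT spacing, which says only that those letters are not in this window.
Ccl12: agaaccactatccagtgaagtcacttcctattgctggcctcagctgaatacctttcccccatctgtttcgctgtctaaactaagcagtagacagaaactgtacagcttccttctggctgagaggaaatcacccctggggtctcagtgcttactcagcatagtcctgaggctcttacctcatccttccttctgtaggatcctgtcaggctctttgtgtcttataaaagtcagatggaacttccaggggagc

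Ccl2 was dim, above the array median in 1 array, and was tested among all probe sets. Its probe set read 7.09 and 6.96 in WT, 5.90 and 5.75 in IL4R KO, with 7.44 and 6.52 in the transgenic lungs. Both IL4R KO pools were lowest, and the WT values lay inside the range of the transgenic pools. WT minus IL4R KO was 1.20 ± 0.27 (limma adjusted p = 0.10, not passing, and 0.014 without either transgenic pool). Against IL4R KO the transgenic difference was 1.15 ± 0.27, with an interval of 0.51 to 1.79, an unadjusted p of 0.0039 and an adjusted p of 0.30 (limma). Transgenic minus WT was -0.049, with an interval of -0.69 to 0.59.

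Ccl7 was under the array median in all 6 arrays, where RMA understates differences. Its probe set read 6.22 and 6.32 in WT, 5.06 and 5.39 in IL4R KO, with 6.15 and 5.68 in the transgenic lungs. As with Ccl11, the groups did not overlap and the transgenic pools stood between the others. Unlike Ccl11, transgenic minus WT did not pass, at -0.36 with an interval of -0.77 to 0.06 (limma adjusted p = 0.39). WT exceeded IL4R KO by 1.05 ± 0.17, or 2.06-fold, which passed among all probe sets (limma adjusted p = 0.044). That call held in 6 of 11 alternatives, over which the difference was 0.83 to 1.21. Among the alternatives in which it ended were those without IL4R KO pool 1, without either WT pool and without both arrays that held liver transcripts. In the last of these the difference was 0.83. Transgenic minus IL4R KO was 0.69 ± 0.17, with an interval of 0.27 to 1.10, and did not pass (limma adjusted p = 0.32).

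The Ccl8 probe set read 11.09 and 11.04 in WT, 9.88 and 8.37 in IL4R KO, with 10.17 and 9.20 in the transgenic lungs. The WT pools were high and close together, while the IL4R KO pools differed by 1.51 and overlapped the transgenic pools. WT minus IL4R KO was 1.94 ± 0.53, or 3.83-fold, and did not pass (limma adjusted p = 0.11). Without IL4R KO pool 1 it was 2.69 and passed (0.020, in a range of 0.020 to 0.41 over 15 alternatives). The transgenic lungs minus IL4R KO gave 0.56, with an interval of -0.74 to 1.86, which holds both 0 and a 2-fold excess. Transgenic minus WT was -1.38 and did not pass (limma adjusted p = 0.26).

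The receptor and the cells that answer these ligands were followed too. Ccr2, the receptor of Ccl2, Ccl7 and Ccl12 on monocytes, read 9.14 and 9.29 in WT, 8.81 and 9.06 in IL4R KO, with 9.72 and 9.37 in the transgenic lungs. Against IL4R KO the transgenic difference was 0.61 for Ccr2 and did not pass (limma adjusted p = 0.26). The mean of the 7 monocyte markers was 10.04 and 10.09 in WT, 9.66 and 9.68 in IL4R KO, with 10.2 and 9.80 in the transgenic lungs. Of these 7, Chil3 (2.33) and Vcan (1.13) passed as higher and Fcgr1 (-1.17) as lower in WT against IL4R KO (2.77% and 1.92% of all genes tested). The other markers differed by -0.21 to 0.29, so the gap in the mean rests on few genes, Chil3 above all. Between transgenic lungs and IL4R KO 0 of 7 passed (limma, with 3 of 7 at an unadjusted p under 0.05). The part of monocyte numbers in the chemokine values was not tested.

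Ccl6 (C10) and Ccl9 (MIP-1 gamma) are CCR1 ligands of rodents, made by macrophages and other myeloid cells, and lie side by side on chromosome 11. The brighter Ccl6 probe set read 13.11 and 13.17 in WT, 12.35 and 12.16 in IL4R KO, with 12.44 and 12.17 in the transgenic lungs. Its second probe set, a type that can bind related transcripts, read 11.78 and 11.89, then 10.96 and 10.50, then 10.75 and 10.26 in the same order. Both put WT above all other arrays, and IL4R KO and transgenic pools overlapped. Ccl6 was higher in WT than IL4R KO by 0.89 ± 0.11, or 1.85-fold (limma adjusted p = 0.015), and the second probe set by 1.10 ± 0.20 without passing (limma adjusted p = 0.057). The call ended without WT pool 1 or WT pool 2 (0.13 in each case). Transgenic minus WT was -0.84 ± 0.11 at the brighter probe set (limma adjusted p = 0.021), and -1.33 at the second (0.039). The brighter one did not pass without transgenic pool 2 (0.10), WT pool 1 (0.18), WT pool 2 (0.19) or both arrays that held liver transcripts (0.062). The second did not pass without any 1 of the WT or transgenic pools (0.074 to 0.28), without both liver-containing arrays (0.080) or under a robust intensity trend (0.058). Transgenic minus IL4R KO was 0.052 for Ccl6, with an interval of -0.23 to 0.33.

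The Ccl9 probe set read 12.03 and 12.06 in WT, 10.51 and 9.56 in IL4R KO, with 10.69 and 9.56 in the transgenic lungs. Its second probe set read 10.60 and 10.80 in WT, 8.90 and 8.23 in IL4R KO, with 9.12 and 8.15 in the transgenic lungs. WT was highest in both, and the other 2 groups had nearly the same values, pool by pool. WT minus IL4R KO was 2.01 ± 0.43, or 4.02-fold, at the brighter probe set and did not pass (limma adjusted p = 0.064). At the second it was 2.13 ± 0.34, or 4.39-fold, and passed (limma adjusted p = 0.037). That call ended without IL4R KO pool 2 (0.066), WT pool 1 (0.23), WT pool 2 (0.25) or both arrays that held liver transcripts (0.091), and under a robust intensity trend (0.13). The brighter one passed without IL4R KO pool 1, at 2.48 (0.031, in a range of 0.027 to 0.32 over 15 alternatives). Ccl9 in transgenic minus IL4R KO was 0.085, with an interval of -0.98 to 1.15. In transgenic minus WT it was -1.92 at the brighter probe set (limma adjusted p = 0.095) and -2.06 at the second (0.051). Neither passed, the second by a narrow margin.

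Macrophages are a main source of Ccl6, Ccl9, Ccl8 and Ccl24. The mean of the macrophage markers was 10.3 and 10.4 in WT, 10.1 and 9.94 in IL4R KO, with 10.1 and 9.90 in the transgenic lungs. Of 12 tested macrophage markers, Chil3, Itgax and Mrc1 passed as higher in WT than IL4R KO and Fabp4 and Lyz2 as lower (limma). Of all genes tested 2.77% passed as higher and 1.92% as lower. The list of alternative activation by IL-4 and IL-13 also holds Chil3 and Mrc1. Of its 12 tested markers, 10 passed as higher in WT than IL4R KO and 0 as lower (2.77% and 1.92% of all genes tested). Their median difference was 2.08 against IL4R KO, and it was -0.016 for transgenic minus IL4R KO, where 0 of 12 passed (limma) and 3 had an unadjusted p under 0.05. Mgl2, a C-type lectin of such macrophages, was higher in WT by 2.11 (limma adjusted p = 0.00099), and Pdcd1lg2, the PD-1 ligand PD-L2, by 2.05 (limma adjusted p = 0.001). Pdcd1lg2 and Chil4, both among the 10, entered the gene test through WT alone, so the filter helped to shape that count. Several genes of this list are known STAT6 targets, as several of the chemokines are, and its part in the chemokine values was not tested.

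In every one of the 12 probe sets transgenic pool 1 read higher than transgenic pool 2, by 0.25 to 1.13 with a median of 0.48. The gap exceeded 0.25 in 11 of 12, where 4.15% of all probe sets had such a gap in that direction. In IL4R KO, pool 1 was higher in 8 of 12 with a median gap of 0.22, and 5 of 12 exceeded 0.25 (11.1% of all probe sets). In WT, pool 1 was higher in 5 of 12 with a median gap of -0.046, and 0 of 12 exceeded 0.25 (4.62% of all). These counts describe single pairs of pools and have no replicate check.

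Part of the neutrophil list also differed between these pools. Of its 9 markers S100a8, S100a9, Camp, Ngp, Cxcr2 and Csf3r read higher in transgenic pool 1 by 1.03 to 3.89, while Elane (0.15), Mpo (0.037) and Ltf (-0.022) hardly differed. The mean of the 9 neutrophil markers was 9.81 in transgenic pool 1 and 8.15 in transgenic pool 2, 9.05 and 8.38 in the IL4R KO pools, and 8.05 and 8.34 in the WT pools. S100a8, a calprotectin subunit abundant in neutrophils, read 13.59 and 10.56 in the transgenic pools, 12.56 and 11.08 in IL4R KO, with 10.25 and 10.88 in WT. Ngp, a neutrophil granule protein named here after its values were seen, read 10.98 and 7.09 in the transgenic pools. Of 6 tested neutrophil markers, 0 passed between transgenic lungs and IL4R KO (limma), and Ltf had an unadjusted p under 0.05, as lower. In WT minus IL4R KO 1 of the 6 passed, Ltf as lower (-1.07, limma adjusted p = 0.011), where 1.92% of all genes tested passed as lower. Without transgenic pool 1, transgenic minus IL4R KO was 1.22 for Ccl11 and 0.82 for Ccl12, beside 1.41 and 1.08 with it. For Ccl2 it was 0.69 beside 1.15, and for Ccl7 0.46 beside 0.69, with none of these 4 passing (limma). The part of neutrophils in the chemokine values was not tested.

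**Figure D3:**
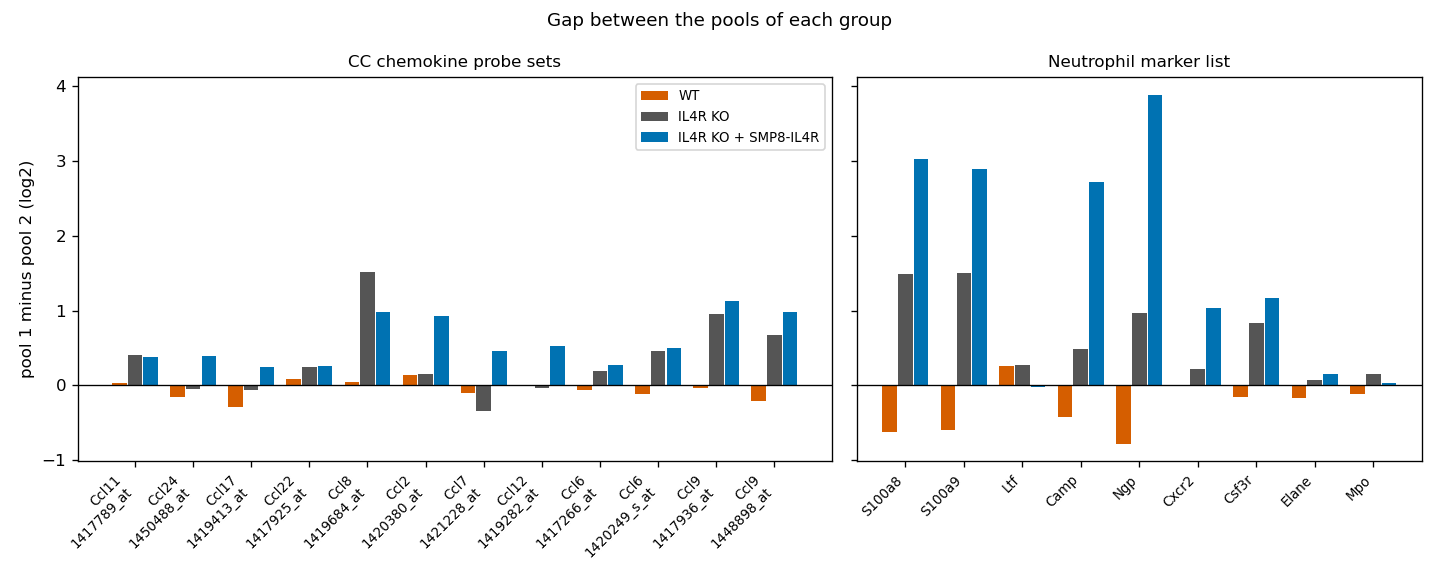
Pool 1 minus pool 2 in log2 intensity within each genotype, with 1 bar per genotype for each of the 12 chemokine probe sets (left) and 9 neutrophil markers (right). All 12 transgenic chemokine bars lie above 0, as do 8 of 12 in IL4R KO and 5 of 12 in WT, and the tallest neutrophil bar is that of Ngp in the transgenic lungs at 3.89.

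The receptors of these chemokines showed no passing difference. Of 14 CC and atypical chemokine receptor genes listed, 13 had a probe set, 7 were tested and 0 passed in any of the 3 comparisons (limma). Their median difference was -0.012 for WT minus IL4R KO, -0.15 for transgenic minus IL4R KO and 0.047 for transgenic minus WT. Over all genes tested it was -0.024, -0.0047 and 0.032. Among the 7 tested, Ccr6 had an unadjusted p under 0.05 for WT minus IL4R KO, at -0.50 (limma adjusted p = 0.17), and Ccr2 for transgenic minus IL4R KO. Ccr3, the receptor of Ccl11 and Ccl24, read 3.80 to 4.41, Ccr4, the receptor of Ccl17 and Ccl22, 5.03 to 5.44, and Ccr8, the receptor of Ccl8, 4.85 to 5.22. These 3 were too dim to be tested among genes. Ackr2, a scavenger that clears inflammatory CC chemokines, read 10.99 to 11.20 over the 6 arrays, and its transgenic minus IL4R KO value was -0.15 (limma adjusted p = 0.45).

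**Figure D4:**
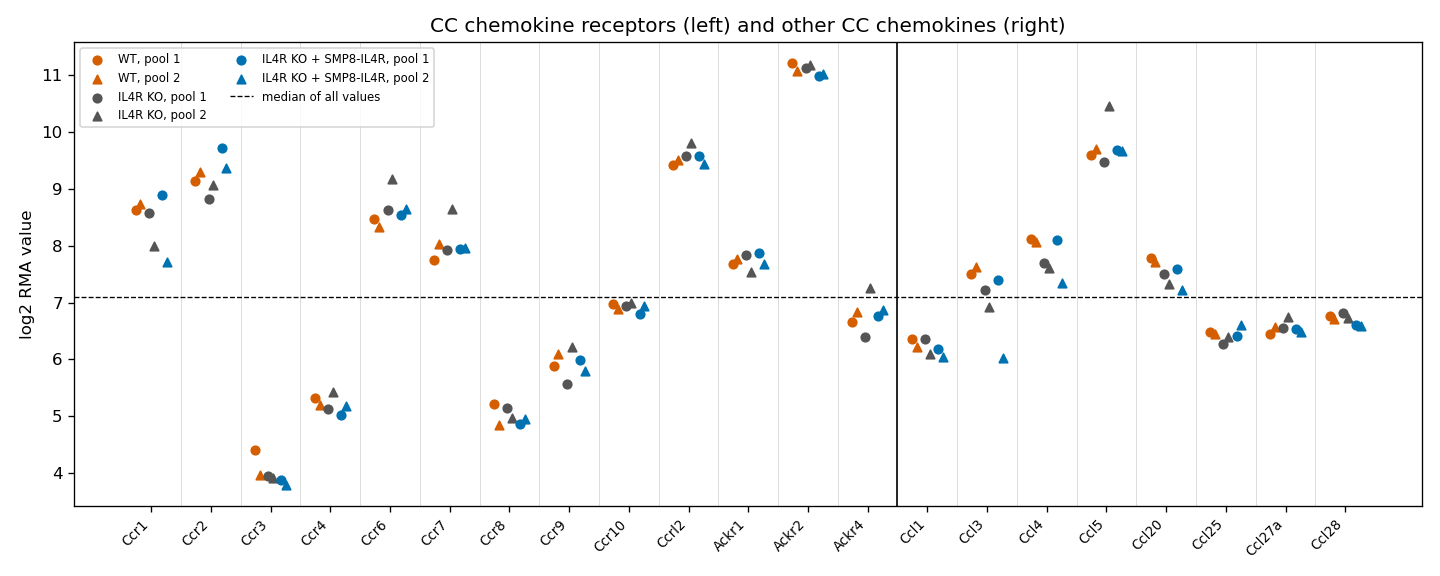
Log2 intensity of CC chemokine receptor genes (left) and other CC chemokines (right) in the 6 arrays, with 1 point per pool of 4 mice and a dashed line at the median of all values, 7.10. Values of Ccr3, Ccr4 and Ccr8 stay at or under 5.44, and the transgenic pools of Ccr2 read 9.72 and 9.37 beside 8.81 and 9.06 in IL4R KO.

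Other CC chemokines, less tied to type 2 inflammation, gave no call. Of 11 listed, 8 had a probe set, 4 were tested and 0 passed in any comparison (limma). Ccl20, the CCR6 ligand, was at 0.33 for WT minus IL4R KO with an unadjusted p of 0.0499 (limma adjusted p = 0.22). Ccl4 was at 0.44 (0.32), Ccl3 at 0.49 (0.54) and Ccl5 at -0.32 (0.57) in the same comparison.

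Of 12 tested genes of IL-4 and IL-13 signaling, Socs1 and Cish, feedback inhibitors induced by STAT factors, passed as higher in WT than IL4R KO and as lower in the transgenic lungs than in WT. Socs1, which entered the gene test through WT alone, differed by 0.74 (limma adjusted p = 0.0089) and Cish by 0.90 (0.020) in WT minus IL4R KO. Stat6 itself was at -0.21 (0.11). Il33, an epithelial alarmin that acts upstream of type 2 cytokines, was higher in WT than IL4R KO by 1.24 (limma adjusted p = 0.0023). Its transgenic pools, at 11.44 and 11.23, lay between WT (12.12 and 12.19) and IL4R KO (10.99 and 10.84), with 0.42 over IL4R KO that did not pass (limma adjusted p = 0.24).

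Smooth muscle genes, which mark the cells in which the SMP8 promoter is stated to act, had a mean of 10.8 in both WT pools, 10.3 in both IL4R KO pools, with 10.94 and 11.01 in the transgenic pools. Of 12 tested, 7 passed as higher in WT than IL4R KO (2.77% of all genes tested). As higher in the transgenic lungs than IL4R KO 5 passed (0.0759% of all genes tested). Actg2, a smooth muscle actin, was higher than in IL4R KO by 1.02 in WT (limma adjusted p = 0.0011) and by 1.48 in the transgenic lungs (0.0047), and the transgenic lungs exceeded WT by 0.47 (0.019). Smooth muscle itself can make Ccl11, and the part of this list in the Ccl11 values was not tested.

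The profile of Ccl11 was compared with the other 11860 genes tested, by the root mean square distance between log2 values centred on each gene's mean over the 6 arrays. The closest were Agr2 at 0.556, Ccl17 at 0.570, Cxcl1 at 0.587, Slc6a20a at 0.625 and Aldh1a3 at 0.637, where the median gene was at 1.73. Agr2 is a disulfide isomerase of mucous cells, Cxcl1 a neutrophil attractant, Slc6a20a an amino acid transporter and Aldh1a3 a retinaldehyde dehydrogenase. The likeness was mostly in the WT excess, since transgenic minus IL4R KO was 0.053 for Agr2, 0.25 for Ccl17, 0.19 for Cxcl1 and 0.094 for Slc6a20a, against 1.41 for Ccl11. Aldh1a3, which entered the gene test through WT alone, was the 1 of the 5 with a like step, at 1.14, and did not pass (limma adjusted p = 0.19). It read 8.408 and 7.998 in WT, 5.73 and 5.32 in IL4R KO, with 6.72 and 6.61 in the transgenic lungs, so its groups, like those of Ccl11, did not overlap.

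**Figure D5:**
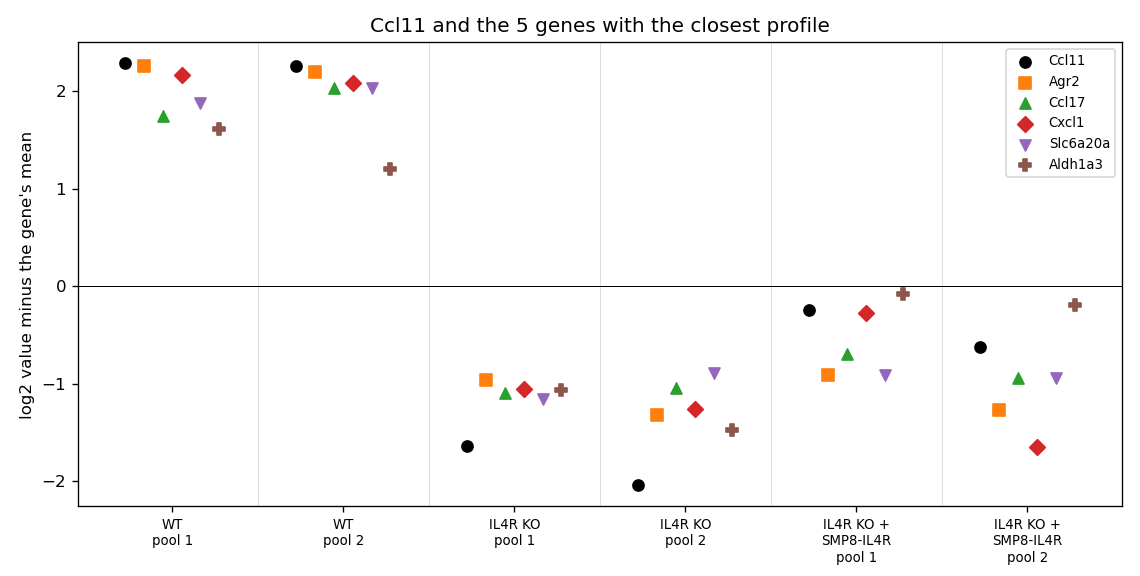
Log2 intensity minus the gene's mean over the 6 arrays for Ccl11 and the 5 genes with the closest profile, with 1 symbol per gene in each array. All 6 genes are high in both WT pools, and in the transgenic pools Ccl11 and Aldh1a3 exceed their own IL4R KO values by 1.41 and 1.14 on average.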

How the data were processed

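RNA from whole lung was hybridised to Affymetrix mouse expression arrays, 2 per genotype. The deposited values are log2 intensities made by the authors with RMA (robust multi-array average), per the submitters' processing notes (version not given in the sources used here). RMA equalises the arrays' distributions and compresses dim signals, so fold changes of dim genes are understated. Values ran from 2.63 to 14.8.

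Of 45101 probe sets, the 64 array controls were dropped. Of the rest, 34945 had 1 annotated gene, 932 several and 9160 none, and 34741 were matched by Entrez identifier to the GRCm38.p6 gene table, used for names and gene order. Each gene was read by its brightest probe set. Groups were fitted with limma 3.58.1 in R 4.3.3 (lmFit, eBayes without trend, 6 arrays sharing 1 spread, 3 residual and 2.86 prior degrees of freedom), and the code was tested on simulated data. Alternatives varied the filter, probe set choice, moderation, arrays, scaling and block. The members and lists were chosen with earlier results of these data known. Named were all members, Il4ra, receptors and other CC chemokines needed to describe their lists, up to 3 tested genes of each other list with the lowest p in WT minus IL4R KO, and the 5 genes closest to Ccl11. Arrays have no sequencing depth.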

Additional observations from a re-analysis of the deposited data

How the results depend on the processing

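Ccl11 and Ccl17 stayed past the threshold in both comparisons with WT under all 15 alternatives, with adjusted p up to 0.029 for Ccl11 and 0.0067 for Ccl17 (limma). Of the 10 genes, 5 passed for WT minus IL4R KO (2 to 7 when each array was left out, 2 without either WT pool), 0 for transgenic minus IL4R KO (0 to 1) and 6 for transgenic minus WT (2 to 7). Ccl11 made the 1 call for transgenic minus IL4R KO under a robust intensity trend, the replicate block (1.41 in both) and without IL4R KO pool 2, and its difference was 1.21 to 1.61 leaving out each array. With the upper quartile as the filter, which tests fewer members, transgenic minus WT gave 3. Of the 12 probe sets, 7 passed for WT minus IL4R KO (2 to 9), 0 for transgenic minus IL4R KO (0, but 1 under a robust trend and 1 with the block) and 7 for transgenic minus WT (2 to 8, with 4 without either transgenic pool). Without both arrays that held liver transcripts these were 3 for WT minus IL4R KO and 4 for transgenic minus WT, with fewer samples in the fit. Signs near 0 turned in transgenic minus IL4R KO: Ccl22 was -0.0015 with centred arrays (-0.12 to 0.14 leaving out each array), Ccl6 -0.087 with the median of its probe sets (-0.084 to 0.19), and the second Ccl6 probe set 0.0029 without the liver-containing arrays (-0.47 to 0.021). Leaving out each array gave -0.20 to 1.31 for Ccl8, -0.48 to 0.65 for Ccl9, -0.42 to 0.56 for its second probe set, and -0.51 to 0.41 for Ccl2 in transgenic minus WT. The labels do not say whether the replicate number pairs the pools, and the main fit did not pair them. Pool 1 minus pool 2 correlated across 11861 genes at -0.51 for WT and IL4R KO, -0.087 for WT and transgenic and 0.12 for IL4R KO and transgenic. Liver transcripts lay in WT pool 2 and IL4R KO pool 1, so they entered the first of these with opposite signs. These correlations cannot settle the pairing. With the replicate block 7, 1 and 7 of the 10 genes passed in the 3 comparisons, and the cause of each change was not tested.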
